A study of Mus musculus with 12 samples.

Results

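The genes described here are 35 markers of cell types other than monocytes, macrophages and neutrophils, of 54446 gene identifiers in the count tables. They were named as a list and matched by mouse gene symbol, and every symbol matched a single identifier. The list holds 8 T cell genes, 3 B cell genes, 6 genes of natural killer (NK) and cytotoxic lymphocytes, 5 epithelial genes, 5 fibroblast and pericyte genes, 3 endothelial genes, 3 globin genes of erythroid cells and 2 mast cell genes. The cells were CD11b+ myeloid cells drawn with a magnetic selection kit from tumors of MC38, a colon carcinoma line of mouse, growing in wild-type mice that carry the floxed but intact allele Ythdf2 f/f. Control tumors (Ctrl) received no radiation and irradiated tumors (IR) received a single dose of 20 Gy, with cells taken 3 days later. For each condition, 3 Input libraries held the RNA of the lysate and 3 IP libraries held the RNA that came down with an antibody to YTHDF2, a reader of the RNA mark m6A. Each library stands for cells pooled from several mice, and the study calls the 3 libraries of a group technical replicates. They are called pools below, but whether each came from separate mice is not certain. The p-values below therefore measure the spread between libraries, which may or may not include that between groups of mice. Since the starting material was a mixed pool, fewer cells of a type and less RNA per cell cannot be told apart.

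Lineage markers are genes whose products define what a cell is. The CD3 chains signal for the T cell receptor, and CD4 and CD8 are its coreceptors. CD79A and CD79B signal for the B cell receptor, keratins fill epithelial cells and collagens are laid down by fibroblasts. Some markers are shared between lineages. Thy1 is found on T cells and innate lymphoid cells, Pecam1 (CD31) on endothelium and on many leukocytes, E-cadherin (Cdh1) on epithelium and on some mononuclear phagocytes and mast cells, and Cpa3 in mast cells and basophils. CD11b itself, encoded by Itgam, is carried by some NK cells, basophils and B cells as well as by monocytes, macrophages and neutrophils.

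YTHDF2 binds m6A, which is written on adenosines in short motifs, of which GGAC is a common form, and is often found near the end of the coding region. The last 120 coding bases are shown for the B cell gene Cd79b and the mast cell gene Cpa3, because among the 7 members at 5 CPM (counts scaled to the size of the library) or more they had the highest and the lowest ratio of IP to Input in Ctrl. They come from the GENCODE M21 transcripts on mm10, chr11:106311807-106312027 for Cd79b, which spans an intron, and chr3:20215805-20215924 for Cpa3, both on the minus strand. Capitals mark GGAC, read on the transcript strand only.
Cd79b: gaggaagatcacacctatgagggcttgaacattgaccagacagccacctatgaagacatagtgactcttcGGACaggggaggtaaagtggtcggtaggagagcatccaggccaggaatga
Cpa3: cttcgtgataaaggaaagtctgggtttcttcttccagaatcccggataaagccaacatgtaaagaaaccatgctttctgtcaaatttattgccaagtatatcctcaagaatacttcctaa
The Cd79b stretch held 1 GGAC and the Cpa3 stretch held 0. A GGAC was present in the same 120-base stretch of 41.7% of 21662 protein-coding genes and of 18 of the 35 members.

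The Inputs held 34445784 to 42382532 reads counted on genes and the IP libraries 27852948 to 33882664. Of uniquely aligned reads, 24.6 to 27.0% of the Input and 41.8 to 54.1% of the IP were assigned to no gene in the counting. The counts do not tell whether these reads lay between genes, in introns or on the opposite strand of a gene. The label of the cells was checked against 15 myeloid reference genes, all of which were detected. The mean level of Itgam was 962 CPM ± 4.14 in Ctrl and 1752 CPM ± 35.9 in IR (Inputs, SD, n = 3), and that of Lyz2, the lysozyme of monocytes, macrophages and neutrophils, was 2516 and 2636 CPM. Of the 5024 exonic bases of Itgam, 3450 overlap another annotated gene, Gm49368, on the same strand, so its counted level is uncertain. The neutrophil and monocyte alarmin genes S100a9 and S100a8 had the highest levels of the list per kilobase of exon, 8225 and 3677 CPM per kb on average over the 6 Inputs. Not every reference gene stood clear of the members. C1qa (2.01), Adgre1 (9.3), Fcgr1 (15.0), Mrc1 (17.5), Ptprc (18.5) and Cd14 (20.0 CPM per kb) lay below Cdh1, the highest member at 23.1. In the Input comparison, 8 of the 15 were higher after IR and 5 were lower. All CPM values here were scaled by the TMM factors of the 12 libraries together, whereas log2 fold changes used the factors of the libraries compared, so ratios of the CPM values differ slightly from the fitted fold changes.

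**Figure D1:**
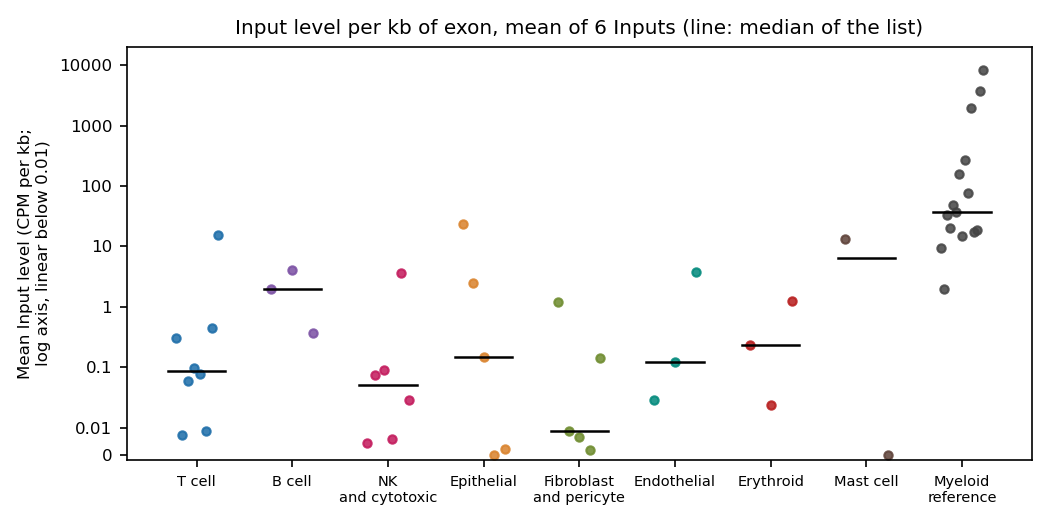
Mean Input level per kilobase of exon (CPM per kb, mean of 6 Inputs) of each member, by lineage, and of 15 myeloid reference genes. The axis is logarithmic above 0.01 and linear below; each point is a gene and the line is the median of its list. The member with the highest level, Cdh1 at 23.1 CPM per kb, lies below the myeloid median of 37.2.

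The 35 members made up 0.0251 to 0.0255% of the counts on genes in the Ctrl Inputs and 0.0193 to 0.0196% in the IR Inputs. Most members were at or near the floor of detection, and a few markers carried most of the counts. Of the 35 members, 7 reached 5 CPM on average in the Ctrl or IR Inputs (Thy1, Cd79b, Epcam, Cdh1, Col1a1, Pecam1 and Cpa3), 6 lay between 1 and 5 CPM (Lck, Cd79a, Ms4a1, Nkg7, Kdr and Hbb-bt) and 22 lay under 1 CPM. Cdh1, Thy1, Pecam1 and Cpa3 together gave 85.1% of the summed level of the members over the Inputs. No read of the epithelial keratin Krt19 or the mast cell chymase Mcpt4 was counted in any Input, and 9 members including these had at most 3 counts in every Input. At this depth 3 counts, the most a count of 0 allows, correspond to 0.0708 to 0.0871 CPM in an Input library, for counting error only. Per kilobase, the order was Cdh1 (23.1), Thy1 (15.8), Cpa3 (13.1), Cd79b (4.06), Pecam1 (3.79), Nkg7 (3.60), Epcam (2.45), Cd79a (2.0), Hbb-bt (1.27) and Col1a1 (1.22), in CPM per kb averaged over the 6 Inputs. Every other member lay under 0.5 CPM per kb.

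**Figure D2:**
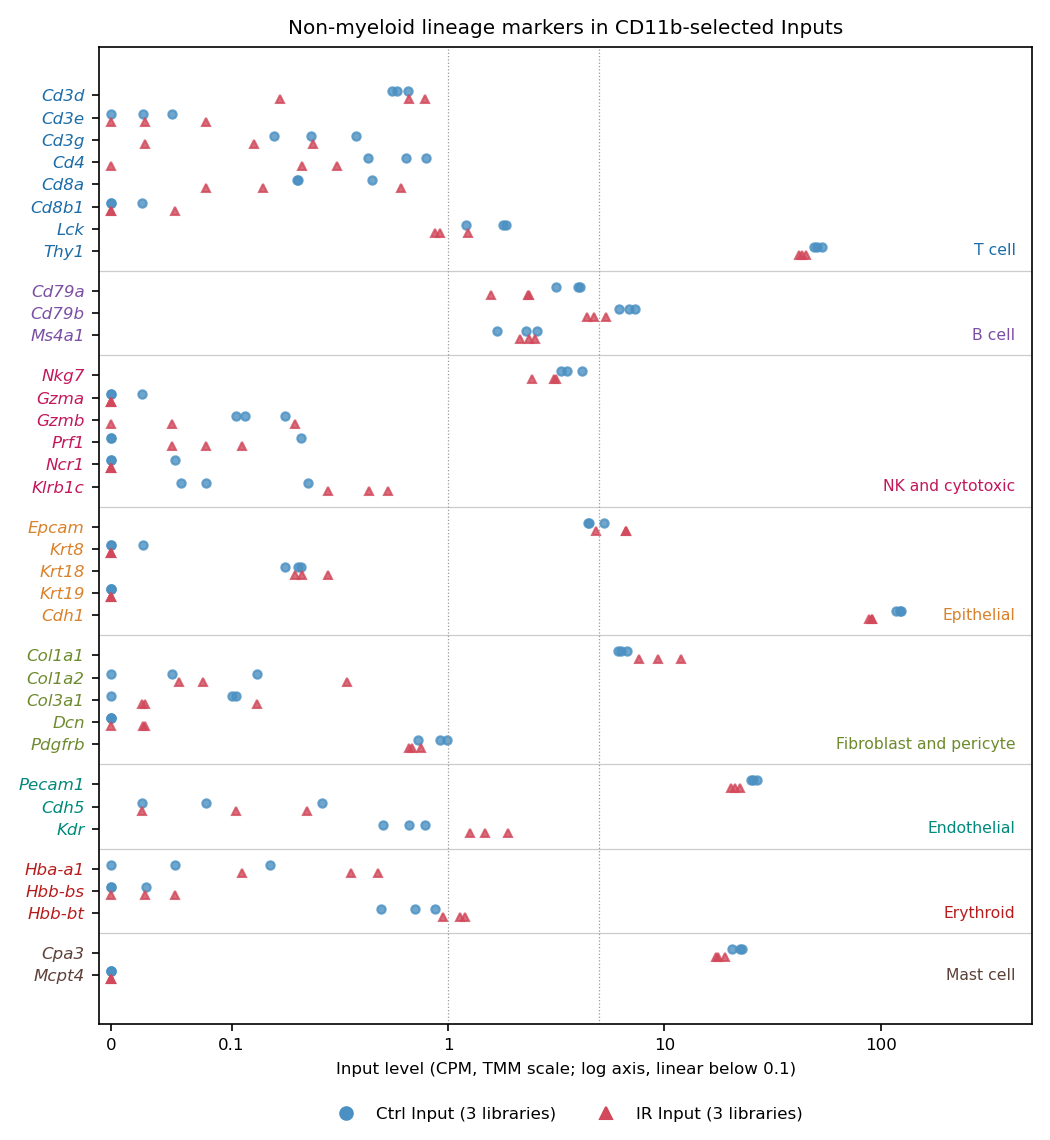
Level of the 35 members in each Input library (CPM; logarithmic above 0.1 and linear below), grouped by lineage, with blue circles for the 3 Ctrl Inputs and red triangles for the 3 IR Inputs. Dotted lines stand at 1 and 5 CPM; 7 members reach 5 CPM on average and most others crowd at the left edge.

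The first comparison asked how these transcripts differed in Input between IR and Ctrl. Of the 35 members, 17 had at least 10 counts in at least 3 of the 6 Inputs and were tested in edgeR with a quasi-likelihood F test, p-values being adjusted by the Benjamini-Hochberg method over all 16914 genes tested. At an adjusted p under 0.05, 3 members were higher after IR, against 21.0% of all genes tested, and 7 were lower, against 23.9%. The 3 that rose were Klrb1c, Col1a1 and Kdr, and the 7 that fell were Cd4, Thy1, Cd79a, Cd79b, Cdh1, Pecam1 and Cpa3. The median log2 fold change was -0.36 over the 17 members and 0.01 over all genes tested. When all 12 libraries were fitted together, which changes the scaling factors as well as the estimate of the spread, 1 member, Klrb1c, remained higher and 2, Cdh1 and Cd79b, remained lower.

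**Figure D3:**
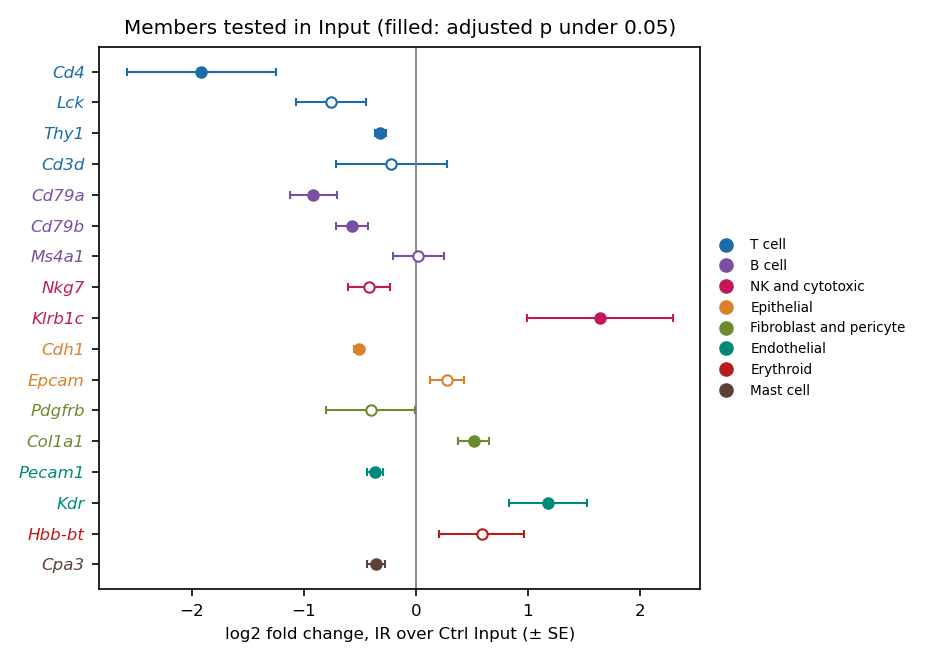
Fitted log2 fold change of IR over Ctrl Input with its standard error for the 17 members tested, coloured by lineage. Filled points passed an adjusted p of 0.05: 7 lie to the left of 0 and 3 to the right, the farthest being Cd4 at -1.92 and Klrb1c at 1.64.

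Among the T cell markers, Thy1 was abundant while the chains that define a T cell were close to absent. Cd3e, a chain of the CD3 complex that every conventional T cell needs, had 0, 1 and 2 counts in the Ctrl Inputs and 3, 1 and 0 in the IR Inputs. Cd3g had 6 to 15 counts in the Ctrl Inputs and 1 to 9 in the IR Inputs, Cd3d 20 to 26 and 6 to 31, Cd8a 7 to 17 and 3 to 24, and Cd8b1 0 to 1 and 0 to 2. Trac, the constant region of the T cell receptor alpha chain, had no count in 5 of the 6 Inputs and 3 in the other. Trbc1 and Trbc2, which resemble each other so that counting may leave reads out, had at most 5. These values lay under 1 CPM in every Input.

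Thy1, the glycoprotein CD90, stood at 49.0, 53.5 and 50.7 CPM in the Ctrl Inputs and 44.9, 41.7 and 43.3 CPM in the IR Inputs. The groups did not overlap, and Thy1 fell by 0.32 on the log2 scale (SE 0.05, edgeR adjusted p = 1.59e-05). Thy1 gave 94.4% of the summed T cell level, which ranged from 52.5 to 56.7 CPM in Ctrl and from 43.3 to 47.1 CPM in IR. Cd4, the coreceptor of helper T cells that is also made by some myeloid cells, had 22, 30 and 17 counts in the Ctrl Inputs and 8, 11 and 0 in the IR Inputs. Its fold change was -1.92 on the log2 scale (SE 0.67, edgeR adjusted p = 0.0208). Cd4 met the count filter mainly through the Ctrl Inputs, the group in which it was high, so that a difference was partly fixed by the filter. At these counts the call rested on single libraries, with an adjusted p of 0.0714 without the second Ctrl pool and 0.0775 without the third IR pool. Lck, the kinase that starts T cell receptor signalling, stood at 1.80, 1.21 and 1.86 CPM in Ctrl and 0.87, 0.92 and 1.24 CPM in IR. The groups overlapped, and the log2 fold change of -0.76 (SE 0.31) had an edgeR adjusted p of 0.0501. Some alternative edgeR fits called it lower, with adjusted p of 0.0447 by library size alone and 0.0369 when every library needed 10 counts. It was also called without the second Ctrl pool (0.0273) or the third IR pool (0.0414). Of 14 further T cell genes, 10 were tested, of which 2 were higher after IR, Icos (log2 0.68, SE 0.12) and the receptor zeta chain Cd247 (1.37, SE 0.54), and 0 were lower by the same edgeR test. Lat and Icos had the highest levels of these per kilobase, 3.14 and 2.73 CPM per kb. Cd247 had 5 to 12 counts in the Ctrl Inputs and 22 in each IR Input. It met the count filter mainly through the IR Inputs, the group in which it was high, so that a difference was partly fixed by the filter.

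The 3 B cell genes were all detected in every Input, and both antigen receptor subunits fell. Cd79a, the alpha subunit, stood at 3.16, 4.0 and 4.07 CPM in the Ctrl Inputs and 1.58, 2.35 and 2.36 CPM in the IR Inputs, with no overlap. It fell by 0.92 on the log2 scale (SE 0.21, edgeR adjusted p = 0.000696). Cd79b, the beta subunit, stood at 7.33, 6.89 and 6.17 CPM in Ctrl and 5.40, 4.72 and 4.38 CPM in IR, again without overlap. It fell by 0.57 on the log2 scale (SE 0.14, edgeR adjusted p = 0.0016). Ms4a1, which encodes CD20, differed by 0.02 on the log2 scale (SE 0.23, edgeR adjusted p = 0.949), with 64 to 103 counts in Ctrl and 85 to 90 in IR. The summed level of the 3 genes ranged from 12.6 to 12.8 CPM in Ctrl and from 8.90 to 9.59 CPM in IR. Among further B cell genes, Pax5 (log2 0.92, SE 0.14) and Igkc (0.78, SE 0.17) were higher after IR and Ighm (-0.37, SE 0.06) was lower by the same edgeR test. Ighm, the heavy chain of IgM, had 1336 to 1664 counts in the Ctrl Inputs and 1202 to 1246 in the IR Inputs.

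The killing machinery of NK cells and cytotoxic T cells was near the floor. The granzyme gene Gzma had 1 count over the 6 Inputs, Gzmb 0 to 7 counts per library, the perforin gene Prf1 0 to 8, and Ncr1, which encodes the NK receptor NKp46, 0 to 2. Nkg7, a granule membrane protein gene, was the exception at 122, 127 and 166 counts in Ctrl and 118, 113 and 97 in IR. Its mean level was 3.68 CPM ± 0.43 (SD, n = 3) in Ctrl and 2.91 CPM ± 0.39 in IR, and the difference of -0.42 on the log2 scale did not pass the edgeR test (adjusted p = 0.07). Klrb1c, which encodes the NK receptor NK1.1, had 2, 3 and 9 counts in the Ctrl Inputs and 20, 10 and 17 in the IR Inputs. The groups did not overlap, and the fitted log2 fold change was 1.64 (SE 0.65, edgeR adjusted p = 0.0422). Klrb1c entered the test only because all 3 IR libraries had 10 counts or more. Of the 3 fits without 1 library in which it could still be tested, 1 called it, with an adjusted p of 0.129 without the first Ctrl pool, 0.125 without the second. DESeq2 gave 0.0636, and edgeR without a count filter gave 0.0984. Its exons also overlap 413 bases of another annotated gene, Gm44511, on the same strand. Of 8 further NK and cytotoxic genes, 3 were tested and 0 were called in either direction by the same test. The highest per kilobase were Klrk1 at 1.56 and Klrd1 at 1.27 CPM per kb, while Klra8 and Gzmk had no Input count.

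The epithelial genes were split between an abundant cadherin and keratins of few or no counts. MC38 cells are of epithelial origin, and keratin 8 and keratin 18 form the filament pair of simple epithelia. Krt8 had 1 count over the 6 Inputs, Krt19 had 0, and Krt18 had 7 to 8 in each Ctrl Input and 7 to 11 in each IR Input. Cdh1, in contrast, had the highest level of all 35 members, 124, 118 and 123 CPM in the Ctrl Inputs and 88.0, 91.1 and 91.1 CPM in the IR Inputs. The groups did not overlap, and Cdh1 fell by 0.51 on the log2 scale (SE 0.04, edgeR adjusted p = 4.86e-11). Its call held in every alternative fit that used the adjusted p alone. Epcam, an epithelial adhesion molecule, stood at 5.24, 4.45 and 4.47 CPM in Ctrl and 4.84, 6.65 and 6.62 CPM in IR, with overlapping groups and an adjusted p of 0.15. The summed epithelial level ranged from 122 to 129 CPM in Ctrl and from 93.1 to 98.0 CPM in IR, with 95.0% of it from Cdh1. Among further epithelial genes, Krt7 (log2 0.56, SE 0.43) and Vil1 (0.08, SE 0.49) did not pass the same edgeR test. Cdx2 had no Input count, and Cldn3, Cldn4 and Cldn7 averaged at most 0.0466 CPM in either Input group.

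Of the fibroblast and pericyte genes, Col1a1 was the only one of the 5 above 1 CPM in the Inputs. Col1a2, whose product pairs with that of Col1a1 in type I collagen, had 0 to 13 counts per Input, Col3a1 0 to 5, and Dcn, the proteoglycan decorin, 0 to 1. Col1a1 stood at 6.11, 6.29 and 6.75 CPM in the Ctrl Inputs and 12, 7.66 and 9.30 CPM in the IR Inputs, with no overlap. It rose by 0.52 on the log2 scale (SE 0.14, edgeR adjusted p = 0.00298), with an adjusted p of 0.0566 without the first IR pool. Pdgfrb, a receptor of pericytes and fibroblasts, had 29 to 35 counts in Ctrl and 26 to 27 in IR and did not pass the edgeR test (adjusted p = 0.436). The summed level ranged from 7.10 to 7.63 CPM in Ctrl and from 8.52 to 13.2 CPM in IR. Of 11 further genes of these lineages, 4 were tested, of which 3 were higher after IR, Mmp2 (log2 0.95, SE 0.13), Col5a1 (0.73, SE 0.20) and Acta2 (0.39, SE 0.13), and 0 were lower by the same edgeR test. Acta2 and Mmp2 were the highest per kilobase, at 2.98 and 2.58 CPM per kb, while Lum and Postn had at most 1 count in any Input.

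The endothelial members moved in opposite directions. Pecam1 stood at 25.7, 25.1 and 26.8 CPM in the Ctrl Inputs and 21.2, 22.3 and 20.2 CPM in the IR Inputs, without overlap. It fell by 0.37 on the log2 scale (SE 0.07, edgeR adjusted p = 0.000163). Kdr, which encodes the VEGF receptor VEGFR2, had 27, 25 and 20 counts in Ctrl and 48, 53 and 75 in IR, also without overlap. It rose by 1.18 on the log2 scale (SE 0.35, edgeR adjusted p = 0.00688), with an adjusted p of 0.0538 without the third IR pool. Cdh5, the VE-cadherin that seals endothelial junctions, had 1 to 9 counts in Ctrl and 1 to 8 in IR. Of 8 further endothelial genes, 3 were tested and 0 were called in either direction by the same test. Cldn5 had no Input count and Emcn had 1. Egfl7 and Esam were the highest per kilobase, at 0.716 and 0.565 CPM per kb.

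The counted erythroid RNA was close to the floor. Hbb-bt, a beta-globin gene, had 17, 33 and 28 counts in the Ctrl Inputs and 36, 43 and 45 in the IR Inputs. Every IR Input lay above every Ctrl Input, but the difference of 0.59 on the log2 scale (SE 0.38) did not pass the edgeR test (adjusted p = 0.221). Hba-a1 had 0 to 6 counts in Ctrl and 4 to 18 in IR, and Hbb-bs 0 to 1 and 0 to 2. The globin genes have near-identical copies, and counting can split reads between them or leave such reads out. Their separate levels are therefore uncertain, and their total may be too low. None of 6 further erythroid genes reached the count filter, Hba-a2 and Klf1 being the highest per kilobase at 0.143 and 0.0678 CPM per kb.

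The mast cell pair was also split. Mcpt4, a chymase of connective tissue mast cells, had no Input count, whereas Cpa3, a carboxypeptidase of granules, stood at 22.3, 22.8 and 20.5 CPM in Ctrl and 17.7, 19.1 and 17.3 CPM in IR. The groups did not overlap, and Cpa3 fell by 0.36 on the log2 scale (SE 0.08, edgeR adjusted p = 0.000595). Of 8 further genes listed with the mast cell markers, 5 were tested by the same edgeR test. Kit (log2 -0.48, SE 0.08) and Ms4a2 (-0.36, SE 0.07) were lower, and 0 were higher. Mcpt8 (-0.10, SE 0.05), Hdc (0.075, SE 0.055) and Fcer1a (0.46, SE 0.28) were not called. Mcpt8, a protease known from basophils, was the highest of these per kilobase at 57.8 CPM per kb, with 1890 to 2355 counts in every Input, and Ms4a2, the beta chain of the high-affinity IgE receptor, followed at 9.31. The mast cell tryptases Tpsb2 and Tpsab1 had no Input count and the chymase Cma1 had 0 to 7. The summed level of the 8 ranged from 155 to 169 CPM in Ctrl and from 152 to 158 CPM in IR. Over the Inputs, 36.3% of it came from the basophil gene Mcpt8.

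**Figure D4:**
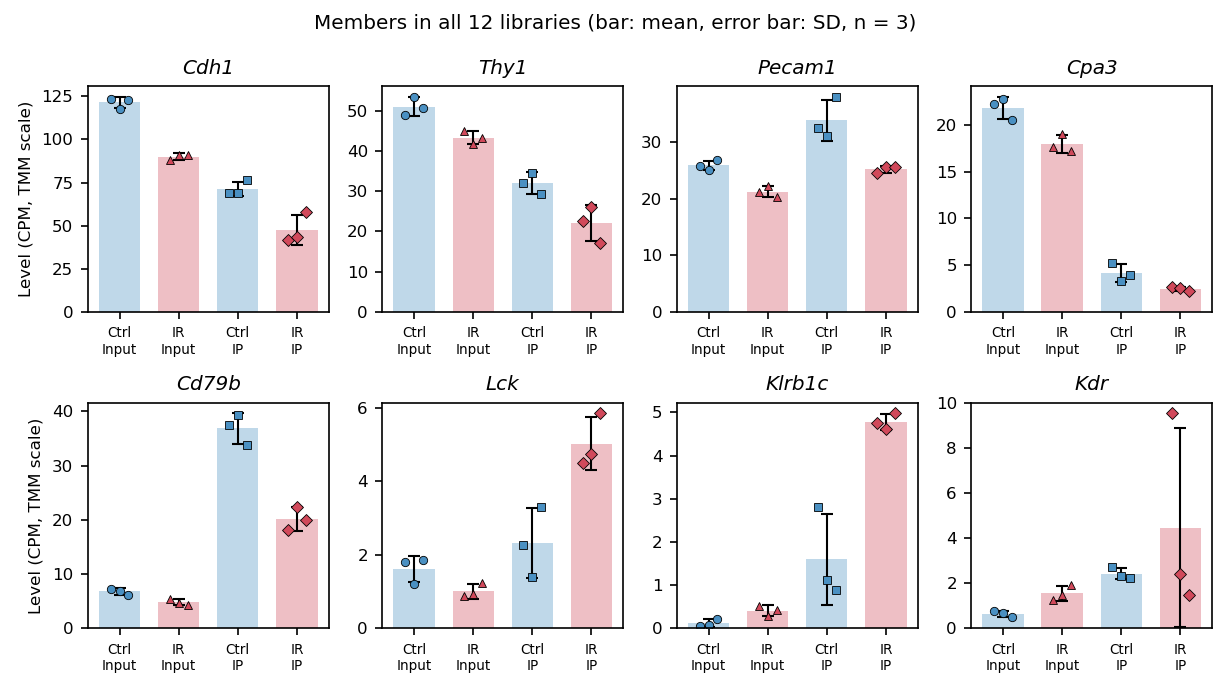
Level (CPM) of 8 members in all 12 libraries; bars are means, error bars are SD over 3 pools and points are libraries. Cdh1, Thy1, Pecam1 and Cpa3 are lower in the IR than in the Ctrl Inputs, Cd79b and Klrb1c are far higher in the IP than in the Input, and in Kdr a single IR IP library stands at 9.54 CPM.

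The second comparison asked which of these transcripts were richer or poorer in the YTHDF2 IP than in the Input. Members made up 0.0192 to 0.0205% of the counts on genes in the Ctrl IP and 0.0172 to 0.0179% in the IR IP, less than in the matching Inputs. In Ctrl, 17 members were tested, of which 6 were higher in the IP, against 34.1% of 17416 genes tested, and 7 were lower, against 34.6%. In IR, 20 members were tested, of which 7 were higher, against 32.1% of 18650 genes tested, and 6 were lower, against 30.4%. The median log2 ratio was -0.12 over the members and 0.02 over all genes in Ctrl, and 0.28 and 0.10 in IR. These shares lie near those of all genes in both conditions. Of the 15 myeloid reference genes, 11 were lower in the Ctrl IP and 12 in the IR IP, and their summed level was 0.326 and 0.248 times that of the Input. The ratios are relative to the other RNAs of the same libraries, and no IP with a control antibody was used here.

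**Figure D5:**
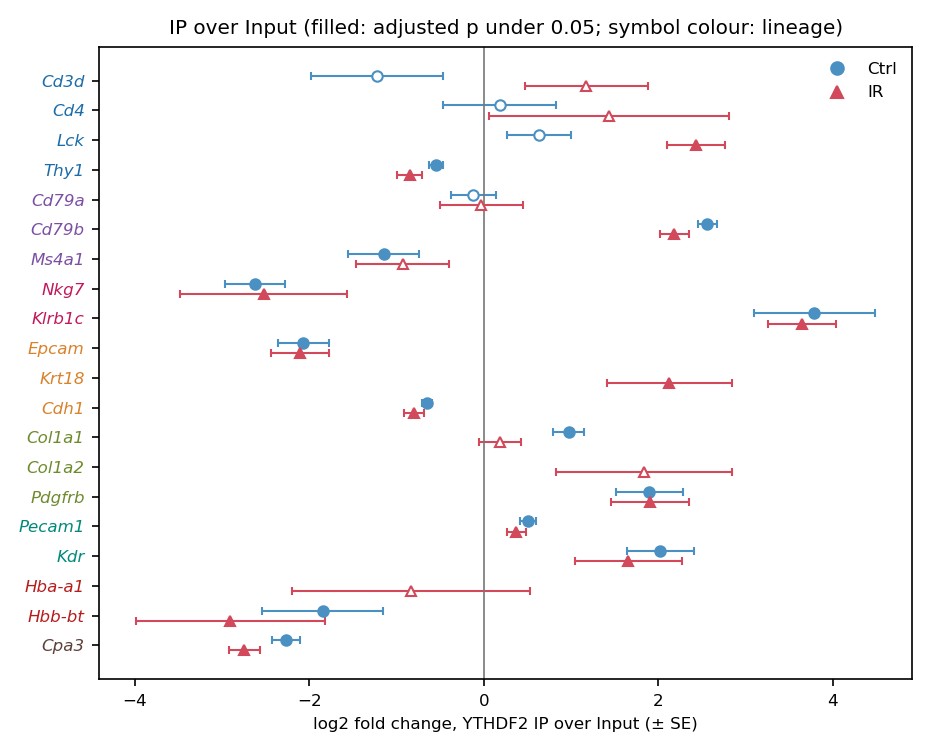
Fitted log2 fold change of the YTHDF2 IP over the Input with its standard error, in Ctrl (blue circles) and IR (red triangles), for the members tested in either condition. Filled points passed an adjusted p of 0.05; Klrb1c, Cd79b, Pdgfrb, Kdr and Pecam1 lie to the right of 0 in both conditions, and Thy1, Nkg7, Epcam, Cdh1, Hbb-bt and Cpa3 to the left.

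The B cell receptor subunits parted in the IP. Cd79b rose from 7.33, 6.89 and 6.17 CPM in the Ctrl Inputs to 37.5, 39.3 and 33.8 CPM in the Ctrl IP, and stood at 18.1, 22.4 and 20.0 CPM in the IR IP. Its ratio was 5.91-fold in Ctrl (log2 2.56, SE 0.11, edgeR adjusted p = 9.02e-13) and 4.54-fold in IR (log2 2.18, SE 0.17, edgeR adjusted p = 6.75e-07). Cd79a had 126, 98 and 67 counts in the Ctrl IP and 29, 78 and 77 in the IR IP, and its ratio did not pass the test in Ctrl (log2 -0.12, SE 0.25) or in IR (-0.03, SE 0.47). Ms4a1 was lower in the Ctrl IP (log2 -1.15, SE 0.41, edgeR adjusted p = 0.0192) and not called in the IR IP (-0.93, SE 0.53). Its Ctrl call was lost without the first or the third Ctrl Input or the first Ctrl IP library, with adjusted p from 0.0628 to 0.0927. The difference between Cd79a and Cd79b was not tested.

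Among the lymphocyte receptors and kinases, Klrb1c was higher in the IP in both conditions. It had 89, 36 and 24 counts in the Ctrl IP and 159, 157 and 153 in the IR IP, and every IP library lay above every Input of its condition. The fitted ratios were 13.8-fold in Ctrl (log2 3.79, SE 0.70, edgeR adjusted p = 0.000112) and 12.5-fold in IR (3.65, SE 0.39, edgeR adjusted p = 1.22e-05), against Inputs of few counts. In Ctrl it entered the test only through the IP libraries, the group in which it was high, so that a difference there was partly fixed by the filter. Lck had 72, 45 and 90 counts in the Ctrl IP and 151, 161 and 180 in the IR IP. In Ctrl its ratio did not pass the test (log2 0.63, SE 0.37, adjusted p = 0.139), and in IR it was 5.40-fold (2.43, SE 0.33, edgeR adjusted p = 8.52e-05). Nkg7 fell to 17, 22 and 11 counts in the Ctrl IP and to 40, 6 and 0 in the IR IP, with log2 ratios of -2.63 (SE 0.34, edgeR adjusted p = 2.6e-06) and -2.52 (SE 0.96, adjusted p = 0.0392). In IR that call was lost without any of the Inputs in turn or without the second IP library, with adjusted p from 0.0682 to 0.123. Thy1 was lower in the IP in both conditions, by 0.55 (SE 0.08) in Ctrl and 0.85 (SE 0.14) in IR as drops on the log2 scale. Cd4 and Cd3d passed the test in neither condition.

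Both abundant epithelial genes were poorer in the IP. Cdh1 stood at 68.8, 68.9 and 76.2 CPM in the Ctrl IP and 41.4, 43.2 and 57.6 CPM in the IR IP, all below the matching Inputs. Its log2 ratio was -0.65 (SE 0.06, edgeR adjusted p = 1.82e-08) in Ctrl and -0.80 (SE 0.11, edgeR adjusted p = 0.000104) in IR. Epcam fell to 20 to 42 counts in the Ctrl IP and 30 to 52 in the IR IP, with log2 ratios of -2.07 (SE 0.29) and -2.11 (SE 0.33). Krt18 had 4, 2 and 1 counts in the Ctrl IP and 46, 19 and 26 in the IR IP. It was tested in IR only, where it was higher (log2 2.13, SE 0.72, edgeR adjusted p = 0.0236), and it entered that test through the IP libraries. The Krt18 call was lost without any of the 3 IR Inputs, with adjusted p from 0.053 to 0.0779, and without a count filter (0.162). Krt8 had 15, 6 and 1 counts in the Ctrl IP and 0, 18 and 12 in the IR IP, and Krt19 had none.

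Among stromal and vascular receptors, Pdgfrb, Kdr and Pecam1 were richer in the IP in both conditions. Pdgfrb had 116, 52 and 103 counts in the Ctrl IP and 101, 74 and 63 in the IR IP, for ratios of 3.72-fold (log2 1.90, SE 0.39) and 3.75-fold (1.91, SE 0.45). Pecam1 stood at 32.4, 31.1 and 38.0 CPM in the Ctrl IP and 24.5, 25.5 and 25.6 CPM in the IR IP, for log2 ratios of 0.51 (SE 0.09) and 0.37 (SE 0.11). Its IR call was lost without the first or the third IR Input, with adjusted p of 0.0593 and 0.0778, and without a count filter it was 0.23 (adjusted p = 0.164). Kdr had 86, 75 and 61 counts in the Ctrl IP, a ratio of 4.07-fold (log2 2.02, SE 0.39). In the IR IP it had 320, 82 and 45 counts, so 1 library held most of them, and its log2 ratio of 1.66 (SE 0.61, edgeR adjusted p = 0.0357) became 0.52 (adjusted p = 0.294) without that library. The call was also lost without any of the 3 IR Inputs, with adjusted p from 0.0621 to 0.106. Col1a1 was higher in the Ctrl IP (log2 0.97, SE 0.17, edgeR adjusted p = 9.21e-05), at 14.6, 9.32 and 10.6 CPM, and was not called in the IR IP (0.19, SE 0.25), at 8.14, 13.7 and 8.36 CPM.

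Cpa3 and the globin gene Hbb-bt were poorer in the IP. Cpa3 fell to 5.25, 3.31 and 3.92 CPM in the Ctrl IP and to 2.65, 2.50 and 2.21 CPM in the IR IP, so that Input held 4.82 times the IP level in Ctrl and 6.72 times in IR. The log2 ratios were -2.27 (SE 0.16, edgeR adjusted p = 7.33e-10) and -2.75 (SE 0.18, edgeR adjusted p = 1.98e-07). Among the 8 further genes listed with the mast cell markers, Ms4a2, Kit, Hdc and the basophil gene Mcpt8 were lower in the IP in both conditions. Fcer1a was lower in Ctrl and not called in IR, a difference that did not pass the interaction test (edgeR adjusted p = 0.456). Hbb-bt fell to 4, 9 and 3 counts in the Ctrl IP and to 12, 0 and 1 in the IR IP, with log2 ratios of -1.85 (SE 0.69) and -2.91 (SE 1.08). Both Hbb-bt calls were lost in several fits that left out a library, with edgeR adjusted p up to 0.0827. Hbb-bt met the count filter only through the Inputs in Ctrl and mainly through them in IR. The Inputs were the group in which it was high, so that a difference was partly fixed by the filter. Hba-a1 was not called in IR (log2 -0.84, SE 1.36) and was not tested in Ctrl, and Hbb-bs was tested in neither condition.

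The members under 1 CPM were spread unevenly over the IP libraries. Ncr1 had 25, 0 and 0 counts in the IR IP, Cd8a 43, 1 and 0, Cdh5 0, 42 and 63, Dcn 0, 12 and 0, and Cd8b1 7, 0 and 0. Cd3e had 12, 4 and 0 counts in the Ctrl IP and Hba-a1 0, 0 and 15 in the IR IP. Of the remaining rare members, Cd3g had 1 to 14, Gzmb 0 to 17, Prf1 1 to 18, Col1a2 6 to 37, Col3a1 0 to 10 and Hbb-bs 0 to 6 counts over the 6 IP libraries, Mcpt4 had 2 in 1 library and Gzma had none. Among members with 10 to 200 counts over the 3 IR IP libraries, a median of 61.5% of the counts lay in the highest library, against 66.0% for all genes in that range. The same medians were 58.0% against 55.1% in the Ctrl IP, 50.0% against 46.9% in the IR Inputs and 42.9% against 46.4% in the Ctrl Inputs.

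The last comparison asked whether the ratio of IP to Input differed between IR and Ctrl, as an interaction over all 12 libraries. Of 25 members tested, 1 was higher after IR, against 6.28% of 20720 genes tested, and 0 were lower, against 13.9%. The member that differed was Lck, with a log2 difference of 1.82 (SE 0.50, edgeR adjusted p = 0.0128). Its IP level was 2.28, 1.39 and 3.30 CPM in Ctrl and 4.50, 4.74 and 5.86 CPM in IR, without overlap, while its Input level was 1.62 CPM ± 0.36 (SD, n = 3) in Ctrl and 1.01 CPM ± 0.20 in IR. Lck passed the test in each of the 12 fits that left out a library, with adjusted p from 0.00533 to 0.0399. At an unadjusted p under 0.05 edgeR gave 3 members higher and 1 lower, Col1a1, and DESeq2 called 2 higher, Lck and Krt18, and 0 lower. Krt18 met the count filter mainly through the IR IP libraries, the group in which it was high. Kdr would be called lower without the first IR IP library (-1.54, edgeR adjusted p = 0.0498). For Cd79b the difference was -0.36 (SE 0.19, edgeR adjusted p = 0.212), and for Klrb1c -0.12 (SE 0.63, adjusted p = 0.932). Of the 15 myeloid reference genes, 2 were higher and 7 lower by the same test. Of the other further genes tested, 1 endothelial gene was higher, Ptprb, which had 52, 52 and 47 counts in the IR IP and at most 2 in any other library. Ptprb entered the test only through the IR IP libraries, the group in which it was high, so that its difference was partly fixed by the filter. Lower were 1 B cell gene, Ighm (-0.59, SE 0.15), and 2 genes listed with the mast cell markers. These were Hdc (-0.72, SE 0.15) and the basophil gene Mcpt8 (-0.77, SE 0.22).

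As a description of sequence, the longest annotated coding transcript of each member was searched for GGAC on its own strand. The members held a median of 4.55 GGAC per kb of transcript, against 3.93 over 21901 protein-coding genes, of which 98.35% held at least 1. Col3a1 (10.1 per kb), Col1a1 (8.43) and Pdgfrb (8.11) had the densest transcripts and Ms4a1 (1.63) the sparsest. Cd79b had 6.29 and Cpa3 5.52 per kb, and they had the highest and the lowest Ctrl ratio among the 7 members at 5 CPM or more. Across the members tested, Spearman's rho between GGAC density and the log2 ratio was 0.43 in Ctrl (17 genes) and 0.42 in IR (20 genes), and between transcript length and the ratio 0.53 and 0.35. Over all protein-coding genes tested the values were 0.17 and 0.14 for GGAC and 0.25 and 0.37 for length. These are correlations across genes that share the same libraries, and genes are not independent replicates.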

How the data were processed

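The deposited files hold, per library, HTSeq read counts for each GENCODE gene. The authors trimmed reads with Trimmomatic 0.39, aligned them to mm10 with HISAT and counted them on GENCODE M19; the strand setting of the counting was not given in the sources used here. The labels name an mRNA isolation and the study's methods a total RNA kit, so the RNA fraction is uncertain. Rows naming no gene were kept out of library sizes and tests.

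Identifiers were joined to GENCODE M21 of the same build (99.93% matched), which gave exon lengths; Ahsp, among the further erythroid genes, was not analysed here, and some further B cell and epithelial results are not reported here. Counts were tested with edgeR 4.0.16 (quasi-likelihood, TMM, Benjamini-Hochberg over all genes tested), keeping genes that reached 10 counts in 3 or more of the libraries compared, under R 4.3.3, with DESeq2 1.42.0 as an alternative. Each standard error is the absolute log2 fold change over the root of the F statistic. The scripts were tested on simulated data. Same-numbered libraries showed no shared deviation, with correlations between -0.029 and 0.022. The study took Input and IP from the same lysate, so they may be paired by design, which these correlations cannot exclude. The main tests used no pairing, and a replicate block was fitted as an alternative. The smallest chi-square per gene between replicates was 3.59, so none was a duplicate.

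Members and lists were chosen with earlier results of these data known. Values in every library were printed for members called in Input or at 5 CPM or more, others by range and counts; of further lists, at most 2 genes with the highest Input level per kb. Genes named beyond this were chosen after their values were seen. This was done where a count was 5 or fewer or a gene was at 0. It was also done where a reference gene lay below Cdh1 or a member was followed into the IP.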

Additional observations from a re-analysis of the deposited data

Results flagged for a closer look

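The ratio of IP to Input of Lck differed between IR and Ctrl by 1.82 on the log2 scale (SE 0.50, edgeR interaction test, adjusted p = 0.0128), the only member of 25 tested whose change passed the threshold. It was 0.63 (SE 0.37) in Ctrl and 2.43 (SE 0.33) in IR. The Lck exons overlap 25 bases of the microRNA gene Mir8119. The share of reads assigned to no gene also moved in the IP, from 41.8 to 42.7% in Ctrl to 49.4 to 54.1% in IR. Its part in the result was not tested.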

How the results depend on the processing

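Of 122 counts of members under an alternative, 110 stayed within 1.5 times the main count, and no value of a single member reversed a call. In Input, 3 members higher and 7 lower became 1 and 2 with all 12 libraries in 1 fit, and 1 lower at a fold of 2 or more. Leaving out single libraries gave 1 to 3 higher and 7 lower, the lowest without the third IR Input. The 7 were not always the same genes. Without the second Ctrl Input or the third IR Input, Cd4 was lost and Lck was called lower (edgeR adjusted p = 0.0273 and 0.0414). Leave-one-out counts for IP over Input were 5 to 6 higher and 5 to 7 lower in Ctrl, and 4 to 7 higher and 4 to 6 lower in IR. For the change of the ratio with IR, DESeq2 gave 2 higher, no count filter gave 1 lower (Col1a1, -0.79, adjusted p = 0.0377), and leaving out libraries gave 1 to 2 higher and 0 to 2 lower (without the first IR IP library, Kdr and Hbb-bt). No shared deviation of same-numbered libraries was seen, and the replicate block moved no count of members by over 1.5 times. Under the block Hbb-bt in Ctrl had -1.91 (edgeR adjusted p = 0.05), and in IR Kdr 1.19 (0.0629) and Krt18 2.05 (0.0854). Summed levels, as log2 IR over Ctrl Input, depended on their highest member: T cell -0.26, -0.64 without Thy1; NK and cytotoxic -0.21, 0.72 without Nkg7; epithelial -0.39, 0.35 without Cdh1; fibroblast 0.52, -0.10 without Col1a1; endothelial -0.22, 1.12 without Pecam1; erythroid 0.91, 2.14 without Hbb-bt. The mast cell sum gives no such value, since Mcpt4 had no Input count. By library size alone the sums were T cell -0.36, B cell -0.55 (main -0.46), epithelial -0.49 and endothelial -0.32, and with the factors of the 6 Inputs B cell -0.53, epithelial -0.47 and endothelial -0.30. By library size alone the median of all genes moved from 0.02 to -0.16 for IP over Input in Ctrl, from 0.10 to 0.25 in IR and from -0.08 to 0.23 for the change with IR. Depth left 18 members untested in Input, 18 in IP over Input in Ctrl and 15 in IR, so nothing can be said of differences in them. Without a count filter, Hbb-bt in Ctrl had -1.96 (adjusted p = 0.0578).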
